A study of Mus musculus with 10 samples.

Results

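The regions described here are the OTX2 peaks of definitive endoderm (DE) in gene deserts, the long stretches of the mouse genome that hold no protein-coding gene. A peak is an interval in which CUT&RUN reads piled up. A desert peak was one whose centre lay in no protein-coding gene body and more than 100 kb from the closest end of such a gene, on chromosomes 1 to 19 and X. Of 42694 DE peaks on these chromosomes (42711 in the whole list), 5079 were desert peaks, which is 11.9% (95% Wilson interval 11.6 to 12.2%). In epiblast stem cells (EpiSCs), the cells from which the DE was made, 474 of 6302 peaks (7.52%, 6.90 to 8.20%) met the same rule. A rule on position alone chose the members, so neither their width nor their overlap with EpiSC peaks was used.

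CUT&RUN releases the DNA around an antibody target with a nuclease fused to protein A/G, and the antibody here recognised an HA epitope carried by OTX2. The 10 samples held 500000 cells each, all of a BL6/129 hybrid strain. The line 7H OTX2-dTAG-EGFP gave 2 HA and 3 IgG samples of EpiSCs and 2 HA samples and 1 IgG sample of DE, and the parental line, named 5.8, gave 1 HA and 1 IgG sample of DE. EpiSCs were grown in N2B27 with Activin A at 20 ng/ml, FGF2 at 12.5 ng/ml and NVP at 175 nM. For DE, CDM held 40 ng/ml Activin A and 3 µM CHIR over 16 h, followed over another 24 h by Activin A at 100 ng/ml with LDN at 100 nM, after which live cells were sorted with DAPI. All tagged samples thus share a single line, and the labels do not say whether it is a clone. The cell types could not be checked against their markers, since a peak list holds no expression values. Each HA group was deposited as 1 list for both replicates, so no result below has a replicate spread, and every test compares 2 lists or 2 classes of peaks within a list.

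OTX2 is a homeodomain transcription factor of the epiblast, the anterior endoderm and later the forebrain and midbrain. Its homeodomain, of the bicoid type, is known to bind the sequence TAATCC. Gene deserts make up a large part of mammalian genomes, and those beside developmental regulators are known to hold enhancers that act over long distances.

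Letters of the genome were at hand only where a desert peak touched the start of a non-coding gene, in the RefSeq windows that run from 250 bases before to 50 bases after a gene start (GRCm38.p6, the assembly behind mm10). Of the 5079 desert peaks, 45 touched 47 such windows, all of lncRNA genes. Of these 45 genes, 2 have a pair of windows under the same peak, so not all windows are independent. TAATCC or its reverse complement GGATTA stood in 14 of these 47 windows (29.8%, 95% Wilson interval 18.7 to 44.0%). Among all 32585 windows the share was 7.04% (6.77 to 7.32%). It was 8.41% (7.28 to 9.70%) of the 2022 windows in deserts that no DE peak overlapped, and 9.09% (7.21 to 11.4%) of the 726 windows of lncRNA genes outside deserts that a DE peak overlapped. Both strands were thus searched, and no other motif. The comparison was made after the windows had been seen, carries no test, and says nothing about binding at any one match. Within the bases that the peak itself covered, 10 of the 45 desert peaks held the motif. The stretches below are the part of each window covered by the peak, given 5′ to 3′ on the strand of the lncRNA, with TAATCC or GGATTA in capitals. They come from 5 wide peaks that cover at least 50 bases of a window and hold the motif there, and from the remaining peak that EpiSCs share, and show where in a desert peak the motif lay. The peaks behind the first pair of stretches overlapped an EpiSC peak. Gm33388 lies between Gli2 and Inhbb (chr1:119305493-119305792, plus strand), and Gm39767 between Gpr158 and Myo3a (chr2:21964118-21964417, minus strand). Gm32740 lies between Opa1 and Hes1 (chr16:29860386-29860613, plus strand), Gm31724 between Sdk2 and Rpl38 (chr11:114559898-114559986, minus strand), and Gm41638 between Haao and Zfp36l2 (chr17:83959509-83959732, minus strand). Gm26901 lies between Pcmtd1 and Sntg1 (chr1:7398047-7398273, minus strand). It was shared with EpiSCs and holds neither spelling of the motif in this stretch.
Gm33388: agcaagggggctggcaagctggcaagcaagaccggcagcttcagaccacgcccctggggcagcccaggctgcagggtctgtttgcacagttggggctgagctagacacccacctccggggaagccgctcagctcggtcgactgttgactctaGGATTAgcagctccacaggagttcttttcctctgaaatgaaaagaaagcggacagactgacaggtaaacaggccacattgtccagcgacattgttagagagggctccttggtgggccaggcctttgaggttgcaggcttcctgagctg
Gm39767: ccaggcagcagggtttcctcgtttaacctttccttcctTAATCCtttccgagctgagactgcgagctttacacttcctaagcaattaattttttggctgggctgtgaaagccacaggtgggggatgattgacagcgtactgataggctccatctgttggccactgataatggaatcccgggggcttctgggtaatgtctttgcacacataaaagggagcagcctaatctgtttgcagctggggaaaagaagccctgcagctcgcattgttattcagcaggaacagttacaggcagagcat
Gm32740: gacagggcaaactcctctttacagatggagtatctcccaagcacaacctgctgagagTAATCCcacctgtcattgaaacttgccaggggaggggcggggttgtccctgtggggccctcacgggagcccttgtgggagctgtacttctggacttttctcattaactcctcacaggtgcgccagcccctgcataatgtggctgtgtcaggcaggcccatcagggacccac
Gm31724: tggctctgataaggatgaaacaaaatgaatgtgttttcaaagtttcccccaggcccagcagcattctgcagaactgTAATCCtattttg
Gm41638: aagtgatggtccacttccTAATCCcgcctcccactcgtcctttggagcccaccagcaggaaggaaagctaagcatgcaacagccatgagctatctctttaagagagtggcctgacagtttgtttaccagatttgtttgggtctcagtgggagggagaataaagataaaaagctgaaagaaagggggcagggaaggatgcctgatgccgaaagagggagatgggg
Gm26901: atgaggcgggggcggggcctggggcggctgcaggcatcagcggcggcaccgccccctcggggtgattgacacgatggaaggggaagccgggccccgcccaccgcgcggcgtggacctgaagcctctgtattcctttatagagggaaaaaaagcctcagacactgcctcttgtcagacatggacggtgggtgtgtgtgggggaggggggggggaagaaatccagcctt

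OTX2 peaks thinned out with distance from coding genes in both cell types, and a larger share of the DE list than of the EpiSC list lay in deserts. In DE, the first 1 kb outside coding genes held 125.9 peaks per Mb of intergenic DNA (95% Poisson interval 122 to 130). The belt from 50 to 100 kb held 12.65 per Mb (12.16 to 13.15). Inside the deserts the density was 10.4 per Mb from 100 to 200 kb, 8.32 from 200 to 300 kb, 6.07 from 300 to 500 kb, 4.18 from 500 to 1000 kb and 3.04 (2.64 to 3.48) beyond 1000 kb. The intervals of neighbouring belts within the desert do not overlap. EpiSC peaks fell from 42.3 per Mb in the first 1 kb to 0.932 per Mb from 100 to 200 kb, and stood at 0.362 (0.271 to 0.473) from 500 to 1000 kb and 0.384 (0.251 to 0.562) beyond 1000 kb, where the intervals overlap. On these chromosomes the DE list was 6.775 times as long as the EpiSC list. The ratio of the densities was 2.98 in the first 1 kb, 9.60 from 50 to 100 kb between 10.01 and 11.7 in the desert belts up to 1000 kb and 7.92 beyond, and in total DE had 10.7 times as many desert peaks. The share of the list in deserts was thus 4.375 percentage points higher in DE (Newcombe interval 3.63 to 5.07, two-sided Fisher's exact test over peaks, p = 1.67e-26 adjusted by Benjamini-Hochberg over the 4 share tests made). Read depth is unknown for both lists, and neighbouring peaks are not independent, so the interval covers counting error only.

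**Figure D1:**
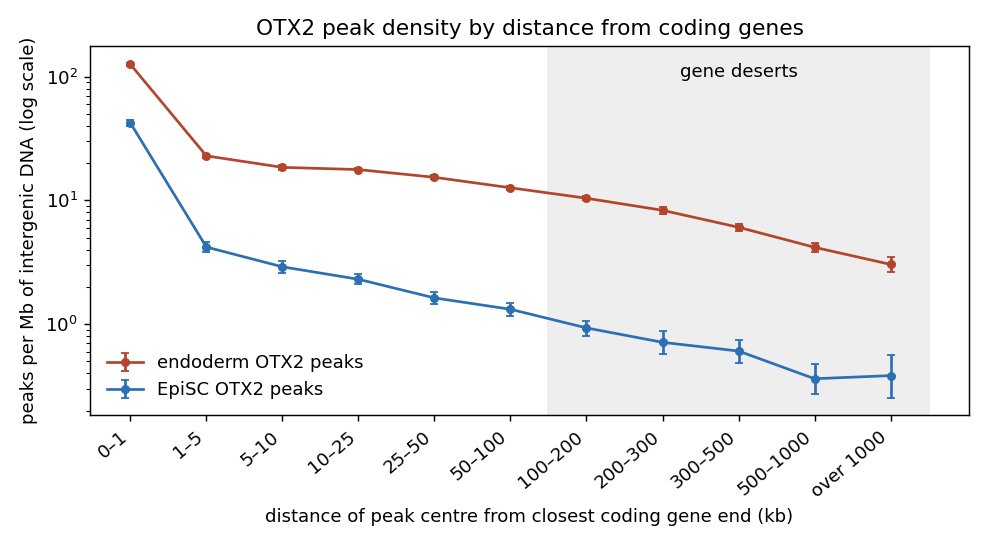
Density of OTX2 peaks (peaks per Mb of intergenic DNA, log axis) in belts of distance from the closest coding gene end (kb). Red points are DE and blue points EpiSC, the bars are 95% Poisson intervals, and the grey field marks the deserts, where DE falls from 10.4 to 3.04 peaks per Mb.

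The desert peaks themselves lay at a median of 222.3 kb from the closest coding gene (quartiles 144.9 and 375.5 kb). Of the 5079, 819 (16.1%) were more than 500 kb away and 206 more than 1 Mb. The farthest was at chr14:82278021-82278083, a narrow peak of 63 bp between Olfm4 and Pcdh17, 2165.5 kb from Pcdh17, a protocadherin of neural cell adhesion. A pair of further peaks in this gap, 2128.4 and 2127.8 kb from Olfm4, were wider, at 240 and 163 bp. The peak second in distance, chr1:102628214-102628321 between Cntnap5b and Cdh20, lay 2137.7 kb from the closer gene. It was shared with EpiSCs and also overlapped an IgG peak. The fifth, on chromosome 18 between Celf4 and Pik3c3, lay 2054.3 kb from Pik3c3. At the threshold itself, the 354 peaks between 100 and 110 kb had a median width of 149.5 bp and 17 (4.80%) were shared with EpiSCs. The 355 peaks just outside it, between 90 and 100 kb, had a median width of 152 bp and 29 (8.17%) were shared.

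Most desert peaks had no counterpart in the much shorter EpiSC list. An overlap of at least 1 bp with an EpiSC peak was found for 331 of 5079 (6.52%, 5.87 to 7.23%), against 11.7% of all DE peaks. The share was 7.93% (7.38 to 8.51%) of the 8819 intergenic peaks 10 to 100 kb from a coding gene, 10.2% of the peaks in coding gene bodies and 21.5% (20.7 to 22.4%) of those up to 10 kb outside them. Desert peaks were shared less often than all other DE peaks, with a difference of -5.83 percentage points (interval -6.56 to -5.05, Fisher's exact test, adjusted p = 6.36e-38). EpiSCs had only 474 desert peaks for these 5079, 1015 for the 8819 peaks from 10 to 100 kb, and 5828 for the 37615 DE peaks outside deserts. These numbers limit the shares that could be reached, so this test is not independent of the share of each list in deserts. Against the 10 to 100 kb class the difference was -1.41 points (interval -2.28 to -0.512, Fisher's exact test, adjusted p = 0.00221). That smaller difference did not pass when non-coding genes also counted as genes (-0.805 points, exact test, adjusted p = 0.401) or when the DE list was cut to its 6302 widest peaks, the length of the EpiSC list (-1.01 points, Fisher's exact test, adjusted p = 0.583). Among those widest peaks the shared share itself was 18.96% in deserts and 32.02% of all others (Fisher's exact test, adjusted p = 9.92e-16). Deeper in the desert the share did not fall further, at 6.61% from 100 to 200 kb, 5.77% from 200 to 300 kb, 7.21% from 300 to 500 kb, 5.56% from 500 to 1000 kb and 8.74% (5.60 to 13.4%) beyond 1000 kb, with intervals that overlap. The median distance was 222.5 kb for shared and 222.3 kb for unshared members.

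**Figure D2:**
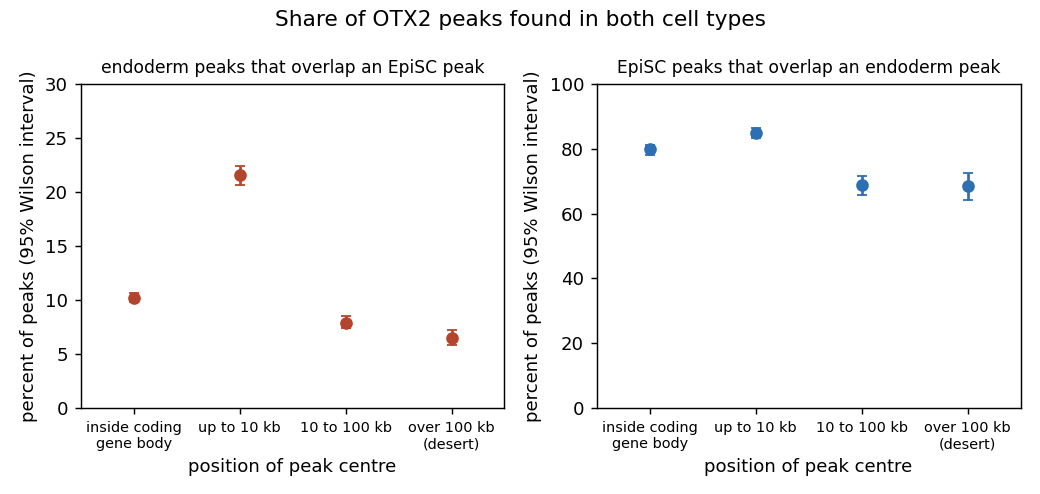
Percent of DE peaks that overlap an EpiSC peak (left, axis to 30%) and of EpiSC peaks that overlap a DE peak (right, axis to 100%) by the position of the peak centre. Points are shares and bars 95% Wilson intervals, and the desert class stands at 6.52% on the left and 68.35% on the right.

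Width, the only measure of a peak that these lists hold, differed between shared and unshared desert peaks, with quartile ranges that overlap. The 331 shared members had a median width of 261 bp (quartiles 172 and 356), and the 4748 unshared ones 143 bp (96 and 215). Desert peaks as a whole were no narrower than others, with a median of 149 bp (quartiles 98 and 225, range 62 to 880) against 137 bp in the 10 to 100 kb class, 142 bp up to 10 kb, 134 bp in gene bodies and 138 bp over the whole list. The share in common with EpiSCs was therefore also read within 5 classes of width with equal numbers of DE peaks. Among peaks of 62 to 86 bp it was 2.21% in deserts and 1.94% from 10 to 100 kb, and among peaks of 87 to 118 bp 3.00% and 3.71%. For 119 to 162 bp the shares were 2.68% and 6.34% (a difference of -3.66 points, interval -5.16 to -2.03). For 163 to 231 bp they were 5.75% and 8.88% (-3.14 points, interval -5.03 to -1.15). Among the widest peaks, 232 to 1121 bp, they were 16.5% and 18.9%, with an interval of the difference from -5.22 to 0.378 points. The difference thus exceeded counting error in the middle widths and not in the narrowest or widest.

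Read from the EpiSC side, most desert peaks were found again in DE, though a smaller share than of all other EpiSC peaks. Of the 474 EpiSC desert peaks, 324 (68.35%, 64.0 to 72.4%) overlapped a DE peak, against 4650 of the 5828 other EpiSC peaks (79.8%, 78.7 to 80.8%). The difference was -11.4 points (interval -15.9 to -7.27, Fisher's exact test, adjusted p = 2.84e-08). Against the EpiSC peaks 10 to 100 kb from a gene, of which 697 of 1015 (68.7%) were kept, the difference was -0.316 points (interval -5.45 to 4.66, Fisher's exact test, unadjusted p = 0.9047, a comparison added after the values were seen). The lower share among desert EpiSC peaks also turned round when only the 6302 widest DE peaks were used: 35.4% of desert and 30.4% of other EpiSC peaks then overlapped one (Fisher's exact test, adjusted p = 0.0346).

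The background lists touched few members, but they were short, with 173, 143 and 180 peaks in the IgG lists. Their length limits how many members they can touch. Peaks of an EpiSC IgG list overlapped 7 of the 5079 desert peaks (0.138%, exact interval 0.0554 to 0.284%) and 21 of all 42694 DE peaks (0.0492%). The HA list of parental DE, with 10 peaks on these chromosomes, overlapped none of them. For overlap with this list, that allows a share of up to 0.0591% (3 counts of the total, with an exact upper limit of 0.0726%). A list of 10 peaks can touch few members in any case, so this limit does not measure the background among them. All 7 members were among the 331 shared with EpiSCs. They include a pair between Esp15 and Esp38 and the far peak between Cntnap5b and Cdh20 described above. Without the peaks that overlap these lists, 6.31% of 5072 desert peaks were shared. The IgG lists come from EpiSCs, that of replicate 3 holds every interval of replicate 2, and no IgG peak list of DE was used here.

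The deserts were filled unevenly. Of the 19388 gaps between neighbouring coding genes, 1519 contained desert DNA, 709.9 Mb in all, and 1008 of these (66.4%) held at least 1 member. The other 511 held none and were small, with a median of 0.0674 Mb of desert DNA against 0.384 Mb in occupied gaps. The mean density was 7.13 desert peaks per Mb. An occupied gap held a median of 3 members and at most 36, and 242 gaps held a single one. The 148 gaps with 10 or more held 2144 members (42.35%), and 193 gaps held 50% of them. Larger deserts held more peaks: across the 1519 gaps, which share 1 peak list and its depth, Pearson's r between desert length and number was 0.563 and Spearman's rho 0.670, as a description. EpiSCs had a desert peak in 298 of the 1519 gaps. Of these 298, 294 also held a member, which is 29.2% of the occupied gaps, and 4 held none. A further 17 members lay before the first coding gene of a chromosome and belong to no gap.

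**Figure D3:**
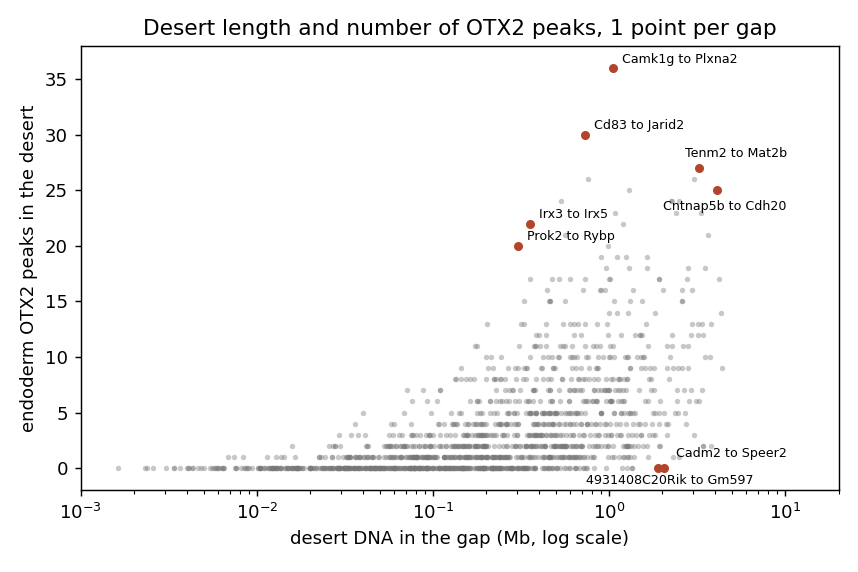
Number of DE desert peaks against the length of desert DNA (Mb, log axis), 1 point for each of 1519 gaps between coding genes. Red points with names are gaps described in the text. Camk1g to Plxna2 stands highest with 36 peaks, and Cadm2 to Speer2 lies at 0 despite its length.

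The gap with most members runs from Camk1g to Plxna2 (chr1:193370356-194619790, 1.25 Mb). Plxna2 encodes a plexin, a receptor for semaphorins in axon guidance, and Camk1g a calcium-dependent kinase. It held 36 desert peaks, or 34.3 per Mb (95% Poisson interval 24.0 to 47.5), none of them shared with EpiSCs, and EpiSCs had no desert peak there. The peaks were narrow, with a median of 118.5 bp, and 24 of the 36 lay closer to Camk1g. The body of Plxna2 carried 12 more DE peaks and that of Camk1g none. Inside the gap, 12 members lay within non-coding genes, among them the 8 of the largest cluster described below.

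The 30 members between Cd83 and Jarid2 (chr13:43803134-44730773) were also all absent from EpiSCs, at 41.2 per Mb. Jarid2 encodes a subunit that joins the Polycomb repressive complex PRC2 and is known for its part in early differentiation, and Cd83 a surface protein of immune cells. Of the 30, 17 lay closer to Jarid2, whose own body held 11 DE peaks against 0 in Cd83. The gap from Tenm2 to Mat2b (chr11:37237054-40679313, 3.44 Mb) held 27, none of them shared, and again EpiSCs had no peak in the desert part of the gap. Tenm2 encodes a teneurin, a synaptic adhesion protein, and 20 DE peaks lay in its body. Over all desert peaks 6.52% were shared, so counts of 0 among some 30 members set these 3 gaps apart by little.

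The next gaps had some counterparts. From Rps24 to Zmiz1 (chr14:24496961-25457874) there were 26 members, 2 of them shared, and 11 further DE peaks in the body of Zmiz1, a transcriptional coregulator. Nrsn1 to Hdgfl1 and Cntnap5b to Cdh20 held 25 each (2 and 3 shared), at 19.3 and 6.13 per Mb. Adamts9 to Magi1 held 24 in only 0.731 Mb, 5 of them shared, and 23 more DE peaks lay in the body of Magi1, a scaffold protein of cell junctions. Adgrl2 to Adgrl4, a gap between a pair of adhesion receptors, held 24 with 2 shared.

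The gap from Celf2 to Gata3 (chr2:7396342-9857077) held 24 members over 1727.1 kb. GATA3 is a zinc-finger factor of T cells, the ear and other organs. The members leaned to its side, 20 being closer to Gata3 and 4 to Celf2, and 12 of them lay between 115.2 and 494 kb from it. The gene bodies went the other way, with 12 DE peaks in Celf2 and 2 in Gata3. The only shared member, chr2:9516507-9516761, lay 340.4 kb from Gata3 and was 255 bp wide.

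**Figure D4:**
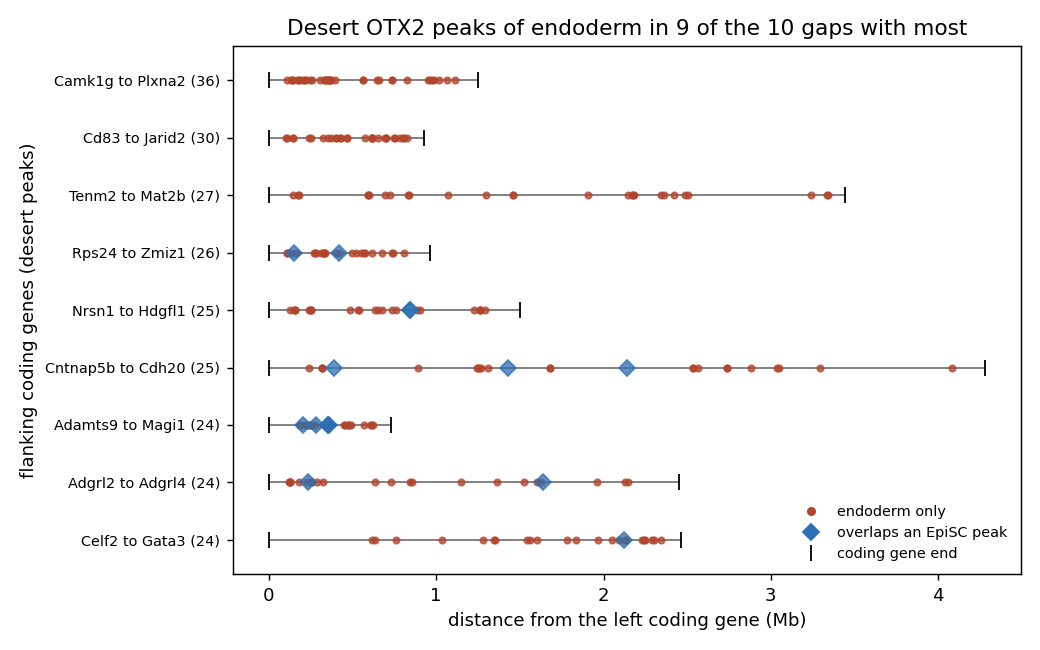
Positions of the desert peaks in 9 of the 10 gaps with most, as distance (Mb) from the coding gene at the left end. Ties were ordered by peaks per Mb, which left out Nr2f1 to Arrdc3, also with 24 peaks. Red dots are peaks found only in DE, blue diamonds overlap an EpiSC peak, vertical ticks are the coding genes, and the number of peaks stands beside each name. The first 3 gaps, with 36, 30 and 27 peaks, have no diamond, and the peaks of Celf2 to Gata3 gather on the right.

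By density, chosen after the values were seen, 5 smaller gaps with 10 or more members stood first. They were Prok2 to Rybp (20 members, 66.2 per Mb, 95% Poisson interval 40.4 to 102), Opa1 to Hes1 (13, 64.3 per Mb), Nckap5 to Mgat5 (11, 63.2 per Mb), Cdkn2b to Dmrta1 (11, 62.1 per Mb) and Irx3 to Irx5 (22, 61.8 per Mb). Hes1 encodes a repressor downstream of Notch, and Rybp a subunit of the Polycomb complex PRC1. The intervals of these 5 overlap, so their order is not resolved.

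Irx3 to Irx5 (chr8:91801655-92357795) lies between a pair of Iroquois homeobox genes that pattern the early embryo and its organs. Its 22 members spread over 307.3 kb, 11 closer to each gene, and 4 were shared with EpiSCs, which had 6 desert peaks here. The shared members were 416, 188, 364 and 460 bp wide. The widest of the 22, chr8:92158317-92158889 with 573 bp, was found only in DE, as was a peak of 519 bp at chr8:92070593-92071111. The narrowest had 67 bp. No member of Irx3 to Irx5 lay in an annotated non-coding gene.

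Shared members were scattered over 227 gaps. The gap with most of them, 6 of the 331, was Esp15 to Esp38 (chr17:39645668-39950519), where all 6 members were shared. The 6 lie within 5.32 kb, cover only 2 EpiSC peaks, and 2 of them overlap IgG peaks. The widest desert peak of all, 880 bp, is one of them and lies on Rn18s-rs5, an annotated ribosomal RNA pseudogene. Without this gap, 6.41% of desert peaks were shared, an alternative chosen after seeing the data. Next came Adamts9 to Magi1 with 5 of 24, Slc10a2 to Efnb2 with 5 of 23, and Irx3 to Irx5 with 4 of 22. Efnb2 encodes an ephrin, a membrane ligand of vascular and neural development.

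Of the 5 widest members, 3 were found only in DE. Those of 843 bp between Gpr139 and Gp2 (chr7:119327646-119328488), 840 bp between Olfr1505 and Tle4 (chr19:14128295-14129134) and 756 bp between Slc16a7 and Lrig3 (chr10:125785603-125786358) were found only in DE. TLE4 is a Groucho co-repressor. The member of 785 bp between Lgalsl and Peli1 (chr11:20957834-20958618), inside the lncRNA Gm32293, was shared. Further wide shared members were 751 bp between Kcnv1 and Csmd3, 737 bp between Chd6 and Ptprt, and 672 bp between 1600014C23Rik and Vegfa. The last lay 143.6 kb from Vegfa, the gene of a growth factor of blood vessels.

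Some large deserts held no member at all. The longest of these gaps were Cadm2 to Speer2 (2.24 Mb), 4931408C20Rik to Gm597 (2.09 Mb), Pfkp to Adarb2 (1.55 Mb), Gm42163 to Cenpc1 (1.55 Mb) and Grm3 to Gm5861 (1.46 Mb), named after their values were seen. EpiSCs had 1 desert peak in Pfkp to Adarb2 and none in the other 4. Whether reads can be placed uniquely in these stretches was not tested.

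Most desert peaks stood alone. When neighbours within 10 kb were joined, 3092 of 5079 (60.9%) had none, against 47.4% of all DE peaks and 51.9% of the 10 to 100 kb class. Clusters of at least 3 held 823 members (16.2%) in 245 clusters, against 26.8% of all DE peaks and 21.7% of the 10 to 100 kb class. No test was made, since density alone sets part of these shares. EpiSC desert peaks hardly clustered, with 15 of 474 (3.165%). Clustered members were shared in 8.87% (7.11 to 11.0%) and the rest in 6.06% (5.38 to 6.82%), but the separation of these intervals rests on 1 cluster. Without the 6 peaks of Esp15 to Esp38, which cover a ribosomal RNA pseudogene and IgG peaks, the shares were 8.20% (6.51 to 10.3%) and 6.06%, with intervals that overlap, an alternative added after seeing the data. Clustered members were wider, with a median of 161 against 146 bp.

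The largest cluster had 8 members in 41.1 kb of the Camk1g to Plxna2 gap (chr1:193699048-193740177), 328.7 kb from Camk1g. All 8 lay within the lncRNA Gm31870, none was shared, and their widths ran from 62 to 296 bp. A cluster of 7 in only 14.2 kb stood between Lhx1 and Mrm1 (chr11:84698670-84712892), 173.1 kb from Lhx1 and 100.2 kb from the closer Mrm1, and made up every member of that gap. Lhx1 encodes a LIM homeodomain factor of the head organiser and anterior endoderm. Its 7 peaks were found only in DE, 6 being between 68 and 201 bp wide and 1 reaching 713 bp. Another 7 stood in 24.4 kb between Foxl1 and 1700018B08Rik (chr8:121358723-121383118), with 1 shared. Foxl1 encodes a forkhead factor known from the gut mesenchyme. The cluster between Gm46900 and Zfp804b held 6 in 11.8 kb (1 shared), and that between Esp15 and Esp38 is the group of 6 already described.

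Genes known from the endoderm often had desert peaks beside them. Of 32 listed endoderm genes, 11 bound a desert, and 10 of these (90.9%) had a member there, with a median of 7 per gene. Over all 2567 coding genes that bound a desert, 1783 (69.5%) had one, with a median of 2. The deserts beside the endoderm genes were shorter, with a median of 0.144 Mb against 0.248 Mb, and their density was 22.9 per Mb against 7.13. The 7.13 is not matched for desert length: over all deserts, the belt from 100 to 200 kb held 10.4 per Mb. Fzd8, a Wnt receptor, had 23 members, 3 of them shared, in the 1.28 Mb from Wac to Fzd8 on chromosome 18. Otx2 itself had 9 in 0.144 Mb, Cxcr4, the chemokine receptor used to sort endoderm, 9, and Prdm1, a zinc-finger repressor, 9. Foxa2, the pioneer factor of endoderm, had 8, Lhx1 7, Sox17 6, Dkk1, a secreted Wnt antagonist, 4, Gata6 2 and Eomes 1. Gsc, with 0.0145 Mb of adjoining desert, had none. Shared members were 3 beside Fzd8 and 1 each beside Foxa2 and Prdm1, out of 78 in all, a share close to the 6.52% of all desert peaks.

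Listed epiblast genes had desert peaks in DE as well. All 6 that bound a desert had at least 1, with a median of 9.5, in deserts of a median 0.760 Mb and at a density of 15.3 per Mb. Sox2, the pluripotency and neural factor, had 25 members on both sides together, 19 of them between Sox2 and Atp11b, and 1 was shared. Klf4 had 17 in the gap to Actl7b, none of them shared, and Pou3f1, a POU factor of the primed epiblast, 10 in the gap from Rragc with 1 shared. Sox3 had 2 and Fst, a secreted Activin antagonist, 1.

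Developmental transcription factors formed the longest list that bounds deserts. Of 74 such genes, Sox2 again among them, 61 (82.4%) had a member, with a median of 6 and a density of 10.2 per Mb, in deserts of a median 0.640 Mb. Sox11, a SOX factor of neural progenitors, had 26, Irx1 25, and Irx5 and Gata3 24 each. Nr2f1, a nuclear receptor of the neural plate, had 24 in the gap to Arrdc3, 12 closer to each gene and 2 shared. Runx1, the regulator of blood formation, had 21 in the 0.757 Mb to Setd4, none of them shared. Pou3f3 and Zeb2 had 18 each, with 1 shared in either case. Among the 13 with none were Pax6, Tfap2a, Tfap2c and Tbx5.

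Genes of neuronal wiring and cell adhesion had the largest median desert of the 4 lists and the lowest density of peaks. Of 72, 65 (90.3%) had a member, with a median of 7, in deserts of a median 1.92 Mb, and the density was 4.11 per Mb. Over all deserts, density fell from 10.4 per Mb at 100 to 200 kb from a gene to 3.04 beyond 1000 kb. The 4 lists were not matched for desert length, so their densities cannot be read as traits of the genes. Plxna2 had 36, Pcdh17 34 in the gaps on both sides (17 in either), Epha7, an ephrin receptor, 29, and Tenm2 27. Cdh2 and Cdh20, cadherins of cell to cell adhesion, had 26 each. Efnb2 had 23, with 5 shared, and Slit2, a guidance ligand, 17 in the gap from Lcorl. A gap whose both neighbours stand in a list counts for each of them, and the lists were written with earlier results of these data known, so their counts are a description.

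**Figure D5:**
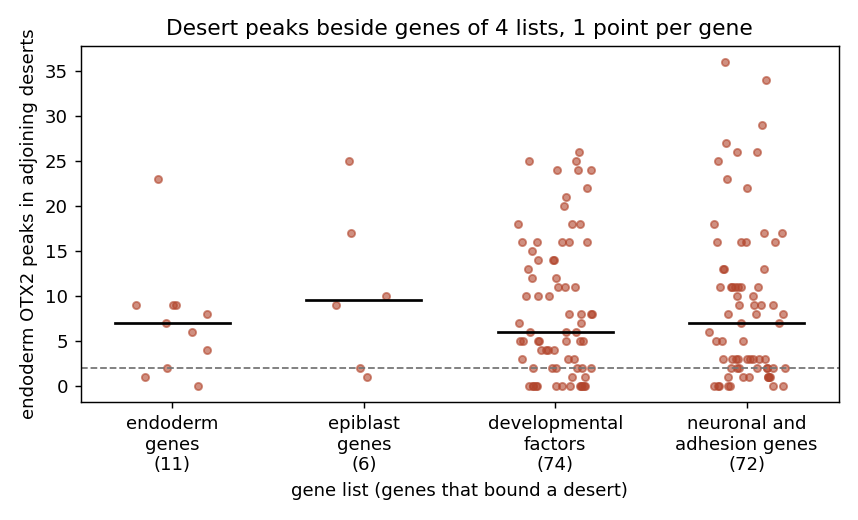
Number of DE desert peaks in the deserts beside each gene of 4 lists, 1 point per gene, spread sideways for sight only. Black lines are list medians (7, 9.5, 6 and 7) and the dashed line is the median of 2 over all 2567 coding genes that bound a desert.

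Chromosomes differed in how much of their OTX2 binding lay in deserts. The share of a chromosome's DE peaks that were desert peaks ran from 6.88% (6.02 to 7.84%) on chromosome 11 to 19.05% (17.4 to 20.8%) on chromosome 13. Per Mb of desert, chromosome 13 was highest with 11.0 and chromosome X lowest with 2.935, below the 5.715 of chromosome 3, the lowest autosome. The sex of the line is not given, so the number of X copies is not known. Shared members made up between 3.03% (chromosome 4) and 12.0% (chromosome 17) of a chromosome's desert peaks. The 6 peaks between Esp15 and Esp38 are among the 16 shared members of chromosome 17.

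Deserts are free of coding genes but not of transcripts. Of the 5079 members, 936 (18.4%) lay inside an annotated non-coding gene, 870 of them (17.1%) in 528 lncRNA genes. In the 10 to 100 kb class the shares were 19.55% and 18.15%. Within 1 kb of an end of a non-coding gene lay 226 members (4.45%), against 8.255% of the 10 to 100 kb class. The lncRNAs with most members, named after their values were seen, were 2610307P16Rik and A930011G23Rik with 11 each, in genes of 425.4 and 431.8 kb. Gm31816 and Gm31870 followed with 9 each in 108.7 and 93.8 kb.

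The authors' deposited table gives each peak a nearest gene, and for 531 of the 5079 members (10.45%) that gene was protein-coding, against 66.9% of the 37615 other DE peaks. In the authors' deposited table the named gene was the closest coding gene for 493 members (9.71%), so for most members it was not. Whether names without a match among the coding genes are non-coding genes or missing from RefSeq was not checked. The authors' deposited table marks some genes as down or up, for a contrast that is not stated. By the authors' deposited table, 25 members (0.492%) had a gene marked down, against 3.44% of all DE peaks, and 31 (0.610%) one marked up, against 3.27%. Among peaks whose named gene in the authors' deposited table was coding, 3.955% (2.60 to 5.97%) of desert peaks and 5.56% (5.28 to 5.85%) of other DE peaks had one marked down. The same shares for genes marked up in the authors' deposited table were 5.085% (3.52 to 7.30%) and 5.40%, and in both directions the desert interval overlaps that of the other peaks.

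The genes so marked, named after their values were seen, were few. By the authors' deposited table, 15 genes beside desert peaks were marked down, led by Alx1, Ascc3, Mirg and Wnt5a with 3 members each and Tle4 and Tox3 with 2. Wnt5a encodes a Wnt ligand of tissue elongation, and its 3 members lay between Wnt5a and Cacna2d3 and were not shared. The authors' deposited table marked 14 such genes as up, led by Bmper with 7 members, Trps1 with 6 and the lncRNA 2610307P16Rik with 4. Bmper encodes a secreted regulator of BMP signals, and its members lay on both sides of the gene, between Bbs9 and Bmper and between Bmper and Npsr1. Kitl, Slc4a7 and Vldlr had 2 each in the authors' deposited table, and 1 of the pair at Vldlr was shared.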

How the data were processed

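OTX2 binding was mapped by CUT&RUN in 10 samples, and the 4 HA samples of the tagged line lie behind the lists used. The deposited HA lists give chromosome, start and end of each peak and no score, height or depth, and per the file names peaks within 50 bp were merged. The submitters' processing notes name Bowtie2 2.3.5.1, SAMtools 1.14, Picard 2.26.10, bedtools 2.30, MACS2 2.2.6 and the build mm10, without their roles. Per the file name, the parental list was limited to fragments between 20 and 120 bp with duplicates removed. Both replicates of a state share 1 list. The label of EpiSC replicate 2 also names the DE list and that of the tagged DE IgG sample the DE HA files, which were read as slips. Depth is unknown, so no depth correction was made.

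Genes came from the NCBI RefSeq table for GRCm38.p6, with 21523 coding genes on chromosomes 1 to 19 and X after 340 entries with a start before 3 Mb were left out, which changed the class of 0 peaks. Lists were compared in Python 3.11.15 with numpy 2.4.6, pandas 2.3.3 and scipy 1.17.1, and the scripts were tested on simulated data. Shares carry 95% Wilson intervals, or exact ones for the background lists, and differences Newcombe intervals, which cover counting error only. The 4 planned share tests were two-sided Fisher's exact tests over peaks, adjusted by Benjamini-Hochberg. The genes named are those of the 10 gaps with most members, the 5 farthest and the 5 widest members, the 5 widest shared, the 5 gaps with most shared members, the 5 largest clusters, and up to 8 per list beside a gap with 10 or more members. Others named were chosen after their values were seen, and 1 of the 10 gaps and some listed genes are not reported here. The members and the gene lists were chosen with earlier results of these data known. The listed name Oct6 had no entry among the genes used and was dropped, while its symbol Pou3f1 was kept.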

Additional observations from a re-analysis of the deposited data

How the results depend on the processing

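No paired analysis was possible because both HA replicates of a state share 1 deposited list, and for the same reason no replicate could be left out. Of 69 values under another setting, 55 kept their direction and their side of the threshold or stayed within their limits. With all genes of the table, non-coding ones included, deserts held 895 members and the shared share lay -0.805 points from the 10 to 100 kb class (Fisher's exact test, adjusted p = 0.401). With as many of the widest DE peaks as EpiSC peaks there were 881 members, that difference was -1.01 points (Fisher's exact test, adjusted p = 0.583), and the share of EpiSC desert peaks kept stood 5.04 points above that of the others. Within width classes the difference was 0.273 points in the narrowest class, -0.711 in the second and -2.46 in the widest, none past the threshold. The desert distance moved the number of members by construction, to 7632 at 50 kb and 2804 at 200 kb, and so did the cluster rule, with 416 members in clusters at 5 kb, 1423 at 20 kb and 90 with at least 5 peaks. The median width rose to 164 bp when peaks under 78 bp, the narrowest EpiSC width, were left out. The cause of the other changes was not tested. Read depth is unknown for both lists and limits every comparison between them.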
